A study of Mus musculus with 4 samples.

Results

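The enzymes that write, erase and read chemical marks on chromatin and DNA were compared between 2 sorted fractions of CD4 T cells from the mouse large intestine, GFP-positive and GFP-negative. They were taken by gene symbol: lysine demethylases (Kdm), lysine methyltransferases (Kmt, Ezh, Smyd, Setd), arginine methyltransferases (Prmt), lysine acetyltransferases (Kat), zinc-dependent deacetylases (Hdac), sirtuins (Sirt), bromodomain proteins (Brd), DNA methyltransferases (Dnmt) and TET dioxygenases (Tet). The sex-linked Kdm5c, Kdm5d and Kdm6a were left out. This gave 85 of the 18193 genes with a probe set of 1 symbol, and 77 of them were bright enough to test.

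All cells came from heterozygous mice of a mixed 129/B6 strain in which GFP had been placed in the Gpr15 locus, so the cells of both groups carried 1 modified allele. GFP-positive cells were lamina propria CD4 T cells in which that locus was active, and GFP-negative cells were the remaining CD4 T cells, a mixture the labels do not divide further. Each group had 2 Affymetrix arrays, numbered replicate 1 and replicate 2, a number that limits precision throughout. No label gives an age or the number of mice behind a sample, so p-values reflect the spread between these arrays. The 2 arrays of each group also differed in sex, as given below, so that spread is not only technical.

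Lysine methylation on histones can mark genes for activity or for silencing, depending on the residue, and each mark has its own methyltransferases and demethylases. Acetyltransferases and deacetylases set the acetyl marks that bromodomain proteins bind, and DNA methyltransferases lay down the methylcytosine that TET enzymes oxidise. In CD4 T cells these enzymes are known to hold lineage genes open or shut. Ezh2, the catalytic subunit of polycomb repressive complex PRC2, is known to stabilise regulatory T cells, and Dnmt1 and the TET enzymes act on the methylation of the Foxp3 locus.

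The Gpr15 signal was 619 and 729 on the GFP-positive arrays, against 146 and 162 on the GFP-negative arrays, a log2 difference of 2.02 (95% interval 1.48 to 2.56, adjusted p = 0.0829 by limma with Benjamini-Hochberg adjustment). Markers of CD4 T cells were present in both groups, with summed signals of 14305 and 12413 on the GFP-positive arrays and 14734 and 14230 on the GFP-negative arrays. All 10 regulatory T cell markers had a positive difference, with a median of 1.2 on the log2 scale. All 12 tested cell cycle genes had a negative difference, with a median of -0.42, but 5 of the 12 were positive and the median was -0.06 without GFP-positive replicate 1, and 5 were positive with a median of -0.19 without GFP-negative replicate 2. Leaving out GFP-positive replicate 2 gave a median of -0.86. After quantile or cyclic loess normalization 11 of 12 were negative. The sums of all 14 cell cycle genes on the array were 5181 and 6456 on the GFP-positive arrays, against 7095 and 8768 on the GFP-negative arrays. The whole lists of other cell types are given by their sums. Myeloid markers (8 genes) summed to 1161 and 1400 on the GFP-positive arrays and 755 and 793 on the GFP-negative arrays. Epithelial markers (7 genes) summed to 1517 and 426 in GFP-positive cells, against 387 and 452 in GFP-negative cells. B and plasma cell markers summed to 6556 and 4368 on the GFP-positive arrays and 3995 and 4689 on the GFP-negative arrays. Stromal and endothelial markers summed to 543 and 843 in GFP-positive cells, against 389 and 952 in GFP-negative cells. The CD8 pair summed to 64.4 and 84.7 in GFP-positive cells, against 76.9 and 61.4 in GFP-negative cells. By their mean over all arrays, Itgam, Muc2, Vil1, Pax5, Cdh5 and Cd8b1 were below the filter on dim genes. The part of any of these in the differences below was not tested. In bulk samples such as these, fewer cells of a type and less RNA per cell cannot be told apart. Xist was bright on the replicate 1 arrays (4313 in GFP-positive and 4172 in GFP-negative cells) and dim on the replicate 2 arrays (112 in GFP-positive and 55.1 in GFP-negative cells), while the Y-linked Eif2s3y was bright on the replicate 2 arrays (2177 in GFP-positive and 2329 in GFP-negative cells) and dim on the replicate 1 arrays (5.08 in GFP-positive and 18.9 in GFP-negative cells). The replicate numbers therefore also split the arrays by sex within each group, and differences within each number are given beside the pooled ones.

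No enzyme differed past the adjusted threshold of 0.05, at which 4 of all 12252 tested genes (0.0326%) were called. At an unadjusted p under 0.05, 6 of the 77 were lower in GFP-positive cells (7.79%, against 4.37% of all tested genes) and 2 were higher (2.60%, against 10.2%). The groups did not overlap for 25 enzymes that were lower in GFP-positive cells (32.5%, background 18.7%) and for 15 that were higher (19.5%, background 28.7%). With a size of at least 1.5-fold in addition, 8 were lower (10.4%, background 5.07%) and 3 were higher (3.90%, background 12.6%). The median log2 difference of the 77 was -0.09, and that of all tested genes was 0.07. It was -0.08 within replicate 1 and -0.06 within replicate 2, where all tested genes had 0.07 and 0.06. Of the 77, 46 had a negative difference. Without the GFP-positive replicate 1 array the median of the 77 was -0.02, and that of all tested genes was 0.08. Leaving out any other array gave -0.07 to -0.06 for the 77 and 0.07 to 0.08 for all tested genes. The counts also moved without 1 array, which leaves 1 array in a group. When every array was set to the same median signal 18 were lower by either measure. That setting moved the median of all tested genes to -0.20. It gave 2189 of them an unadjusted p under 0.05 in either direction, against 1783 without it.

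**Figure D1:**
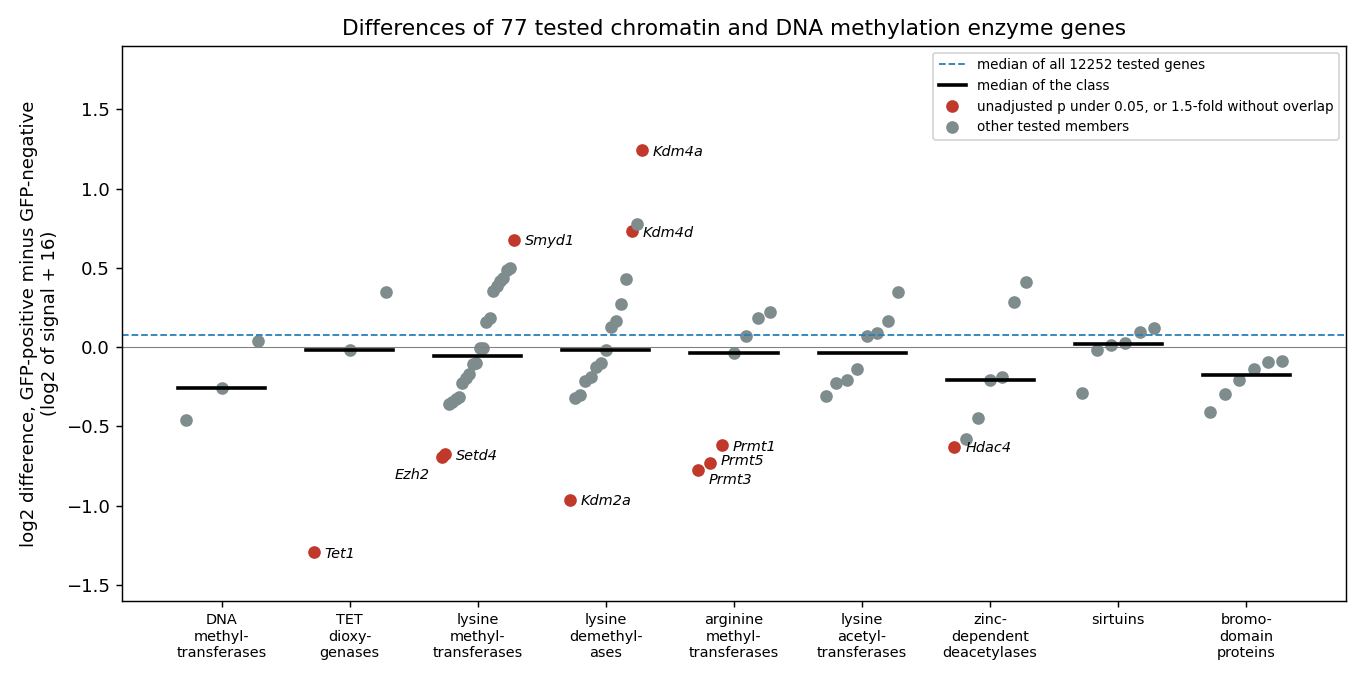
Log2 difference, GFP-positive minus GFP-negative, of each of the 77 tested enzyme genes by class, with the median of the class as a black bar and the median of all 12252 tested genes (0.07) as a dashed line. Red points with names are the 11 enzymes with an unadjusted p under 0.05 or at least 1.5-fold apart without overlap, 8 below and 3 above 0.

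The sign of the median followed the level of the signal. Among the 44 enzymes with a mean signal over 200 the median difference was -0.19 and 33 were negative, and over all 4315 tested genes of that level it was -0.07. Among the 33 dimmer enzymes the median was 0.07 and 20 were positive, and over the 7937 tested genes of that level it was 0.18. The array medians were 46.0 and 45.2 in GFP-positive cells and 37.0 and 36.1 in GFP-negative cells, so dim genes as a whole lay higher in GFP-positive cells. The 3 enzymes that were at least 1.5-fold higher all had mean signals under 50. Those at least 1.5-fold lower without overlap did not follow the level. Of them, 4 had a signal over 200 (9.09%, background 6.67%) and 4 a signal of at most 200 (12.1%, background 4.20%).

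**Figure D2:**
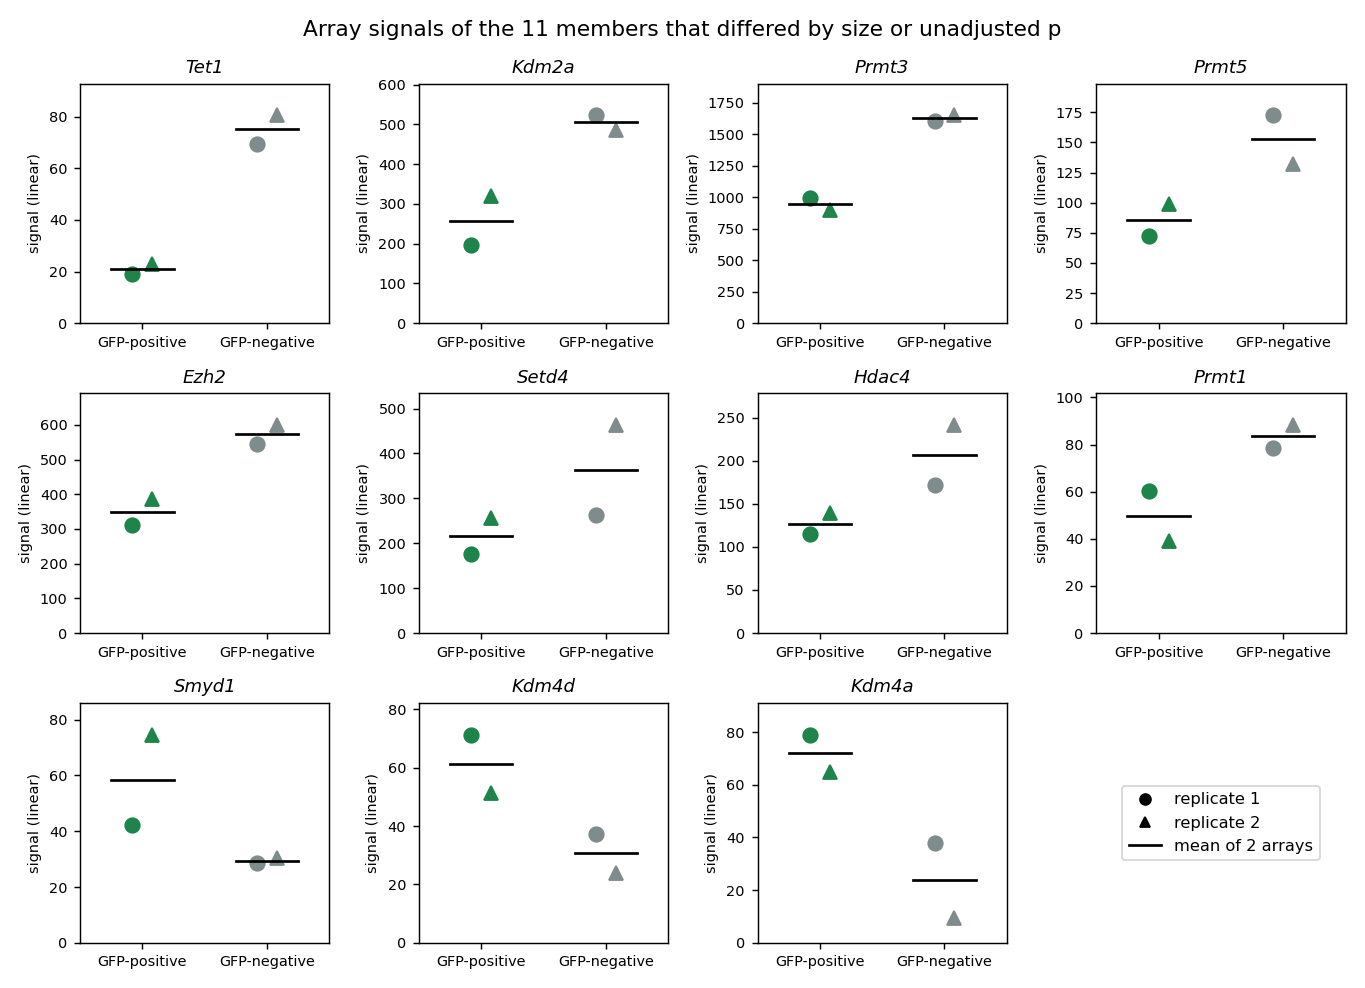
Deposited linear signals of the 11 enzymes on each array, GFP-positive left and GFP-negative right, each panel on its own axis from 0, with circles for replicate 1, triangles for replicate 2 and a bar at the mean of 2 arrays. The groups do not overlap in any panel, and Tet1 has 19.2 and 23.0 in GFP-positive cells against 69.4 and 80.7 in GFP-negative cells.

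Among the enzymes of DNA methylation, Tet1 had the smallest p of all 77 in the main fit, at a pseudocount of 16. Prmt3 had it at a pseudocount of 64 and with trended and robust moderation. With the mean of probe sets the lowest adjusted p (limma) was 0.475 for the TET enzymes, against 0.154 for the lysine demethylases. Tet1 oxidises methylcytosine as the first step of DNA demethylation. Its signal was 19.2 and 23.0 in GFP-positive cells, against 69.4 and 80.7 in GFP-negative cells, with means of 21.1 ± 2.65 in GFP-positive cells and 75.1 ± 8.0 in GFP-negative cells (SD, n = 2 each). Both GFP-positive arrays were below the filter signal of 27.3 and both GFP-negative arrays were above it, so Tet1 was tested on the strength of the GFP-negative arrays. The log2 difference was -1.29 (95% interval -1.83 to -0.76), with -1.28 within replicate 1 and -1.31 within replicate 2. The unadjusted p of 0.00111 ranked 90th of 12252 and the adjusted p was 0.149. Of 4 Tet1 probe sets 1 was above the filter, and the mean over all 4 gave a difference of -0.28.

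Tet2, the TET enzyme known for shaping cytokine expression in T cells, had a positive difference that did not pass the test. Its signal was 2110 and 2413 in GFP-positive cells, against 1705 and 1842 in GFP-negative cells, a log2 difference of 0.35 (95% interval -0.18 to 0.87, adjusted p = 0.514). The groups did not overlap and a further probe set gave 0.33, but the interval includes 0, and the difference was 0.03 under median scaling. Tet3 had 32.0 and 34.1 in GFP-positive cells and 53.9 and 19.2 in GFP-negative cells. The TET enzymes thus had no common direction.

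Dnmt1, which copies methylation onto newly made DNA, had signals of 990 and 1196 in GFP-positive cells, against 1311 and 1716 in GFP-negative cells. The difference was -0.46 (95% interval -1.07 to 0.15, adjusted p = 0.452 by limma). All 3 Dnmt1 probe sets were lower in GFP-positive cells, the others by -0.75 and -0.10. The groups overlapped for the probe set at -0.10. The de novo methyltransferase Dnmt3a had 613 and 606 in GFP-positive cells, against 640 and 838 in GFP-negative cells, a difference of -0.26 (adjusted p = 0.655). Its 4 other probe sets ranged from -0.27 to 0.47, so its direction was not shared by all. Dnmt3b overlapped between the groups (202 and 179.9 in GFP-positive cells, 229 and 149 in GFP-negative cells), and Dnmt3l, a cofactor without catalytic activity, was below the filter.

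Partners of DNA methylation were read from a separate list of 11 tested genes, 5 positive and 6 negative, with a median of -0.20. That median was -0.23 within replicate 1 and 0.0038 within replicate 2, so the list had no common direction. At an unadjusted p under 0.05, 3 were lower in GFP-positive cells and 0 were higher, against 4.37% and 10.2% of all tested genes. Uhrf1, which brings Dnmt1 to hemimethylated DNA, had 457 and 632 in GFP-positive cells, against 834 and 1016 in GFP-negative cells (difference -0.76, adjusted p = 0.297). Uhrf2 differed by -0.64 and Gadd45g, a stress-induced factor linked to DNA demethylation, by -0.77. The groups did not overlap for any of the 3. Dnmt1 and Uhrf1 act during DNA replication, and of the 12 tested cell cycle genes 3 were lower and 0 higher at an unadjusted p under 0.05, against 4.37% and 10.2% of all tested genes. Mki67, a proliferation marker, differed by -0.77, and the part of cell cycling in the differences of Dnmt1, Uhrf1, Ezh2 and the Prmt genes was not tested.

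Tet1 had the smallest p of the enzymes in the main fit, at a pseudocount of 16, and was chosen for that. The stretch around its start site, 250 bases before it to 50 after, is shown. RefSeq gives it on the GRCm38.p6 build as chr10:62887275-62887574, minus strand, and it held 17 CpG and 1 GC box, in capitals.
Tet1: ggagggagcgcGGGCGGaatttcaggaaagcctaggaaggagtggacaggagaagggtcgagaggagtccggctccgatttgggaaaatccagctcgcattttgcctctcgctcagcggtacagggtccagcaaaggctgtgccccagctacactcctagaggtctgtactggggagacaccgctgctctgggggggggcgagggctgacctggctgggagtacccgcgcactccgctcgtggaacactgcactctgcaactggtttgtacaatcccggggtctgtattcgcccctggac
The GC box (GGGCGG, either strand) was present in 66.3% of 101 such windows of 71 enzyme genes and in 35.7% of all 32851 windows. The enzyme windows had a median of 23 CpG, against 7 over all windows. A match describes the letters of the window and was not measured as a bound site.

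The lysine methyltransferases had a median difference of -0.05 over 22 tested genes, from -0.70 to 0.68, with 9 positive and 13 negative. That median was 0.01 after quantile or cyclic loess normalization, so the class had no set direction. At an unadjusted p under 0.05, 1 was lower (4.55%) and 0 were higher, against 4.37% and 10.2% of all tested genes, so the lower share was near the background. The single one was Ezh2, which writes the repressive polycomb mark. Ezh2 had signals of 313 and 386 in GFP-positive cells, against 546 and 601 in GFP-negative cells, with means of 349 ± 51.4 in GFP-positive cells and 573 ± 38.9 in GFP-negative cells (SD, n = 2 each). Ezh2 differed by -0.70 (95% interval -1.25 to -0.14), by -0.77 within replicate 1 and by -0.62 within replicate 2. Its unadjusted p was 0.0223 and its adjusted p 0.277, from the only Ezh2 probe set. Over 15 alternative settings the difference ranged from -1.0 to -0.55. Ezh1, the paralogue of Ezh2, had 254 and 237 in GFP-positive cells, against 215 and 222 in GFP-negative cells. That difference was 0.16, and a second probe set shared it.

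The other polycomb genes were read from a separate list of 23 tested genes, with a median of -0.03 and 10 positive differences. At an unadjusted p under 0.05, 2 were lower and 1 was higher, against 4.37% and 10.2% of all tested genes. Cbx6, a reader of the polycomb mark, had 599.6 and 563 in GFP-positive cells, against 823 and 942 in GFP-negative cells (difference -0.59). Pcgf1, a subunit of PRC1, had 9.12 and 26.9 in GFP-positive cells, against 61.1 and 42.8 in GFP-negative cells (difference -1.04). Both GFP-positive arrays were below the filter for Pcgf1, so it was tested on the strength of the GFP-negative arrays. Phf1, an accessory subunit of PRC2, had 121 and 143 in GFP-positive cells, against 79.7 and 63.0 in GFP-negative cells (difference 0.77). The adjusted p was 0.316 for Cbx6, 0.273 for Pcgf1 and 0.265 for Phf1, so none was called.

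The start of Ezh2 (chr6:47594981-47595280, minus strand, GRCm38.p6, RefSeq) is shown because its window held a site of the letters TTTGGCGC, a form bound by E2F factors, beside 3 CCAAT boxes (CCAAT, either strand). The matches are in capitals, among 31 CpG.
Ezh2: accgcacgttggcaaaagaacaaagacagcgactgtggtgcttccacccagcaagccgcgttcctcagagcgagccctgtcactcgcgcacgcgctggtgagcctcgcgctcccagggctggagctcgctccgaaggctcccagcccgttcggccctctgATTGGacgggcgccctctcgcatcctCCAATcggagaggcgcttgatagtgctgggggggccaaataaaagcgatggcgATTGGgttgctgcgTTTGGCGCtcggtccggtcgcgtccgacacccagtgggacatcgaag
TTTGGCGC or its reverse complement was present in 2 of 101 enzyme windows (1.98%) and in 0.514% of all windows. CCAAT was present in 37.6% of the enzyme windows and 37.4% of all windows. The motifs did not overlap one another in the windows shown.

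Setd4, a SET domain protein, had 176 and 257 in GFP-positive cells, against 263 and 464 in GFP-negative cells. The lowest GFP-negative array was close to the highest GFP-positive one, and the difference of -0.68 had an interval from -1.52 to 0.17 (adjusted p = 0.426). All 3 Setd4 probe sets were lower in GFP-positive cells, by -0.68, -0.65 and -0.54. Kmt2d, which marks enhancers, had 3202 and 2696 in GFP-positive cells, against 3332 and 3552 in GFP-negative cells (difference -0.23, adjusted p = 0.680). Kmt2e, a relative of the Kmt2 enzymes with little catalytic activity, had 2699 and 2607 in GFP-positive cells, against 2534 and 2792 in GFP-negative cells (difference -0.0041, interval -0.52 to 0.51). Of the 5 tested Kmt2 genes 4 had a negative difference, or 3 after quantile or cyclic loess normalization, and the highest was Kmt2b with 0.38. Setd1a and Setd1b, the other COMPASS methyltransferases, differed by -0.36 and -0.35, and the groups overlapped for Setd1a. Its GFP-positive signals were 560 and 1498, against 956 and 1461 in GFP-negative cells, and its difference was 0.34 without GFP-positive replicate 1 and -1.06 without GFP-positive replicate 2.

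Among the Smyd enzymes, none had an unadjusted p under 0.05. Smyd1, best known from heart and skeletal muscle, had 42.3 and 74.6 in GFP-positive cells, against 28.5 and 30.5 in GFP-negative cells. The difference was 0.68 (95% interval -0.01 to 1.36, adjusted p = 0.345), and 2 further probe sets above the filter gave 0.16 and 0.30. All 4 tested Smyd genes had a positive difference, between 0.36 and 0.68, also after quantile normalization (0.26 to 0.46) and median scaling (0.08 to 0.45). In comparison, 57.7% of all tested genes and 5321 of the 7937 with a signal of at most 200 were positive. Without GFP-positive replicate 1 the lowest Smyd difference was -0.14 and without GFP-positive replicate 2 it was -0.0055, with 3 of 4 positive each time. The groups overlapped for Smyd2 and Smyd5. With the mean of all probe sets per gene, 3 of 4 were positive. The family was singled out after its values were seen. The sums of myeloid markers were higher in GFP-positive cells as well, and their part in the Smyd and Kdm4 differences was not tested.

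Subunits of the COMPASS complexes and of deacetylase corepressors were read from a list of 22 tested genes, with a median of -0.07. At an unadjusted p under 0.05, 3 were lower and 0 were higher, against 4.37% and 10.2% of all tested genes. Sap30, a subunit of the Sin3 corepressor, had 119 and 115 in GFP-positive cells, against 376 and 284 in GFP-negative cells (difference -1.37, adjusted p = 0.155). Mta2 and Chd4, subunits of the NuRD complex, differed by -0.67 and -0.60 (adjusted p = 0.325 and 0.339 by limma). Their paralogues went both ways, with 0.34 for Mta1, 0.23 for Chd3 and -0.57 for Mta3. Of the 22 genes, 9 had a positive and 13 a negative difference.

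The lysine demethylases had a median of -0.02 over 15 tested genes and the widest range of the 9 classes, from -0.96 to 1.24, with 7 positive and 8 negative. The median was 0.09 after quantile normalization. Kdm2a, which binds CpG islands, was the lowest. It had 197 and 319 in GFP-positive cells, against 524 and 487 in GFP-negative cells (difference -0.96, 95% interval -1.66 to -0.27, adjusted p = 0.261). The 2 GFP-positive arrays differed more from each other than the 2 GFP-negative arrays did, with -1.34 within replicate 1 and -0.59 within replicate 2. Its 5 other probe sets above the filter ranged from -0.19 to 0.48, and the mean over all Kdm2a probe sets was -0.05, so the difference belonged to a single probe set. Its paralogue Kdm2b had 4946 and 4590 in GFP-positive cells, against 3634 and 4285 in GFP-negative cells (difference 0.27, adjusted p = 0.613), and its second probe set gave 0.26. Kdm6b, a demethylase that removes the polycomb mark, had 6827 and 6020 in GFP-positive cells, against 6212 and 6774 in GFP-negative cells, a difference of -0.02 with an interval from -0.55 to 0.51, and its groups overlapped.

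The 4 Kdm4 demethylases all had a positive difference, as did 57.7% of all tested genes and 5321 of the 7937 with a signal of at most 200, the level of Kdm4a, Kdm4b and Kdm4d. Kdm4a had 79.1 and 65.0 in GFP-positive cells, against 38.1 and 9.47 in GFP-negative cells. The difference was 1.24 (95% interval 0.29 to 2.20), with 0.81 within replicate 1 and 1.67 within replicate 2, and the adjusted p was 0.271. Kdm4d had 71.4 and 51.5 in GFP-positive cells, against 37.5 and 24.0 in GFP-negative cells (difference 0.73, 95% interval 0.08 to 1.38, adjusted p = 0.314). Within replicate 1 the Kdm4d difference was 0.71, and within replicate 2 it was 0.76. Kdm4b had 35.7 and 73.9 in GFP-positive cells, against 49.1 and 8.28 in GFP-negative cells. Kdm4c had 286 and 245 in GFP-positive cells, against 231 and 239 in GFP-negative cells. The groups overlapped for Kdm4b. For Kdm4a and Kdm4b the mean of the GFP-positive arrays, taken on the log2 scale, was above the filter while that of the GFP-negative arrays was below it. Kdm4c was negative (-0.14) when arrays were set to the same median, and the family was singled out after its values were seen.

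**Figure D3:**
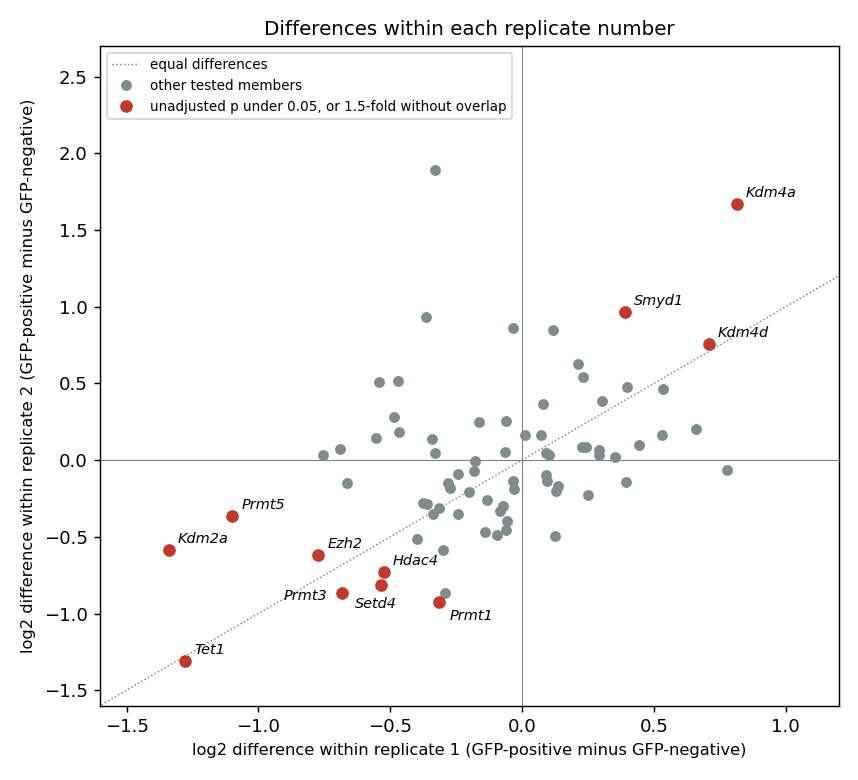
Log2 difference within replicate 1 (horizontal) and within replicate 2 (vertical), GFP-positive minus GFP-negative, for the 77 tested enzymes. The 11 named points lie in the lower left or upper right corner, where any gene whose groups do not overlap must lie. Tet1, at -1.28 and -1.31, is next to the dotted line of equal differences, and Kdm2a and Kdm4a are away from it.

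Of the arginine methyltransferases, 3 of 7 tested genes (42.9%) were lower in GFP-positive cells at an unadjusted p under 0.05 and 0 were higher, against 4.37% and 10.2% of all tested genes. The class median was -0.04, since the other 4 lay between -0.04 and 0.22. Prmt3, a cytosolic enzyme known for modifying a ribosomal protein, had 993 and 900.3 in GFP-positive cells, against 1604 and 1655 in GFP-negative cells, with means of 947 ± 65.5 in GFP-positive cells and 1630 ± 36.0 in GFP-negative cells (SD, n = 2 each). The difference was -0.78 (95% interval -1.29 to -0.26), with -0.68 within replicate 1 and -0.87 within replicate 2. The adjusted p was 0.241. With variances moderated by trend and robustly, its adjusted p was 0.0277, in a setting that called 240 of all tested genes. Its 4 other probe sets ranged from -0.65 to 0.27 and 2 of all 5 were lower, so the direction was not shared by all. The mean over all 5 gave a difference of -0.18.

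Prmt5, which lays down symmetric dimethylarginine on histones and splicing factors, had 72.2 and 99.3 in GFP-positive cells, against 173 and 132 in GFP-negative cells. The difference was -0.73 (95% interval -1.36 to -0.10, adjusted p = 0.304), larger within replicate 1 (-1.10) than within replicate 2 (-0.36), from its single probe set. Prmt1, the main enzyme for asymmetric dimethylarginine, had 60.1 and 39.0 in GFP-positive cells, against 78.6 and 88.4 in GFP-negative cells (difference -0.62, 95% interval -1.24 to -0.0017, adjusted p = 0.343). It too had a single probe set, and the groups did not overlap for either gene. With a pseudocount of 1 or 64, no filter or the replicate block, Prmt1 had no unadjusted p under 0.05 by limma. That leaves Prmt3 and Prmt5, and Prmt3 differed by only -0.18 with the mean of its probe sets. Prmt6, which methylates histone H3 at an arginine, had 245 and 298 in GFP-positive cells, against 231 and 227 in GFP-negative cells (difference 0.22, adjusted p = 0.690), and its sign turned (-0.08) under median scaling.

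The starts of Prmt3 (chr7:49778108-49778407, plus strand) and Prmt5 (chr14:54517421-54517720, minus strand), both from RefSeq on GRCm38.p6, are set side by side because both genes were lower in GFP-positive cells. Capitals mark CCAAT boxes (CCAAT or ATTGG), GC boxes (GGGCGG or CCGCCC), the E-box CACGTG and the ETS site CCGGAAG.
Prmt3: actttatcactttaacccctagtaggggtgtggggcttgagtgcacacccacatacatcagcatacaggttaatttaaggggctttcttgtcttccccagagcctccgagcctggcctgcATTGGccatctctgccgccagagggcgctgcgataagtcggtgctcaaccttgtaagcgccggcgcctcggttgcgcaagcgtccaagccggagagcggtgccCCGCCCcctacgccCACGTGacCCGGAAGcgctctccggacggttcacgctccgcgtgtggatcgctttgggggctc
Prmt5: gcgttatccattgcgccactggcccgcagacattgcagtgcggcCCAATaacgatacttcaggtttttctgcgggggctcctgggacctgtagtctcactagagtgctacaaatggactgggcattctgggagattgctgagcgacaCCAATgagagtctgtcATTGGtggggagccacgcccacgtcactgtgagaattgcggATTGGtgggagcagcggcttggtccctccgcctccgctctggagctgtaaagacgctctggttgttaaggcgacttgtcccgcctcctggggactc
The Prmt3 window held 1 match of each of these 4 motifs and 24 CpG, and the Prmt5 window held 4 CCAAT boxes and 16 CpG. CACGTG was present in 8.91% of the enzyme windows and 7.15% of all windows, and CCGGAAG or its reverse complement in 15.8% of the enzyme windows and 8.86% of all windows.

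The lysine acetyltransferases had a median of -0.04 over 8 tested genes, from -0.31 to 0.35, with 4 positive and 4 negative. None had an unadjusted p under 0.05. Kat2b, also known as PCAF, had 1729 and 1432 in GFP-positive cells, against 1833 and 1805 in GFP-negative cells (difference -0.21, adjusted p = 0.711). Kat6a, which acetylates histone H3, had 818 and 824 in GFP-positive cells, against 990.5 and 936 in GFP-negative cells (difference -0.23, adjusted p = 0.660), although its other 2 probe sets gave 0.03 and 0.50. For both genes the groups did not overlap, but the intervals, -0.75 to 0.33 and -0.73 to 0.28, include 0.

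The zinc-dependent deacetylases, which remove acetyl groups from histones and other proteins, had a median of -0.20 over 7 tested genes, from -0.63 to 0.41, with 2 positive and 5 negative. The median stayed negative under each normalization tried, at -0.35 (quantile), -0.33 (cyclic loess) and -0.49 (median scaling). None had an unadjusted p under 0.05. Hdac4, a class IIa deacetylase that shuttles between cytoplasm and nucleus, had 115 and 139 in GFP-positive cells, against 172 and 242 in GFP-negative cells. The difference was -0.63 (95% interval -1.26 to 0.0043, adjusted p = 0.344), and its other probe set above the filter gave 0.02. Hdac2 had 217 and 215 in GFP-positive cells, against 271 and 332 in GFP-negative cells (difference -0.44, 95% interval -0.99 to 0.10, adjusted p = 0.414 by limma). The other 2 Hdac2 probe sets above the filter gave -0.28 and 0.04. Hdac1, its partner in the same complexes, had 380.5 and 399 in GFP-positive cells, against 348 and 569 in GFP-negative cells (difference -0.19), and the groups overlapped. Hdac5, Hdac9, Hdac10 and Hdac11 were below the filter. Of these Hdac5 had 29.9 and 59.6 on the GFP-positive arrays, against 10.3 and 4.68 on the GFP-negative arrays, and was not tested.

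The sirtuins, NAD-dependent deacylases, had a median of 0.02 over 6 tested genes, from -0.29 to 0.12. Sirt1 had 540 and 534 in GFP-positive cells, against 563 and 446 in GFP-negative cells (difference 0.10, adjusted p = 0.880), and its groups overlapped. Sirt7, a nucleolar enzyme, had 258 and 217 in GFP-positive cells, against 276 and 312 in GFP-negative cells (difference -0.29, 95% interval -0.84 to 0.25, adjusted p = 0.588). Sirt3 was below the filter. No sirtuin had an unadjusted p under 0.05.

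The bromodomain proteins, which bind acetylated lysines, were all negative, with 6 of 6 differences between -0.41 and -0.09 and a median of -0.17. The same 6 of 6 held after quantile, cyclic loess and median normalization, and 5 of 6 without the GFP-positive replicate 1 array. With the mean of all probe sets per gene, 4 of 6 were negative. Of all tested genes, 42.3% were negative, and so were 2567 of the 4315 with a signal over 200. Every Brd gene except Brd7 was of that level. None of the 6 had an unadjusted p under 0.05. Brd9, a subunit of a BAF chromatin remodelling complex, had 1946 and 2146 in GFP-positive cells, against 2242 and 2484 in GFP-negative cells (difference -0.21, 95% interval -0.73 to 0.32, adjusted p = 0.703). Brd1, a scaffold of acetyltransferase complexes, had 1471 and 1638 in GFP-positive cells, against 1667 and 1648 in GFP-negative cells (difference -0.09, adjusted p = 0.875 by limma). Its other 2 probe sets above the filter gave -0.96 and -0.43. The one at -0.96 had 3.05 and 61.9 in GFP-positive cells, against 57.0 and 61.0 in GFP-negative cells. Its groups overlapped, and the value rested on 1 array.

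Histone enzymes whose symbols fall outside these families were read from a list of 22 tested genes, with a median of -0.17 and 15 negative differences. At an unadjusted p under 0.05, 1 was lower and 0 were higher, against 4.37% and 10.2% of all tested genes, so the lower count was near the background. It was Jmjd6, a Jumonji-domain hydroxylase, with 216 and 170 in GFP-positive cells, against 298 and 294 in GFP-negative cells (difference -0.59).

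The choice of probe set mattered for most enzymes with several. Of 40 tested enzymes with more than 1 probe set above the filter, 17 had all of them on 1 side of 0 and 23 had both signs. Dnmt1, Tet2, Setd4, Smyd1, Kdm2b, Brd1 and Kat2b were among the 17. Kdm2a, Prmt3, Hdac2, Hdac4, Dnmt3a and Kat6a were among the 23. Tet1, Ezh2, Prmt5, Prmt1, Kdm4a and Kdm4d had 1 probe set above the filter.

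**Figure D4:**
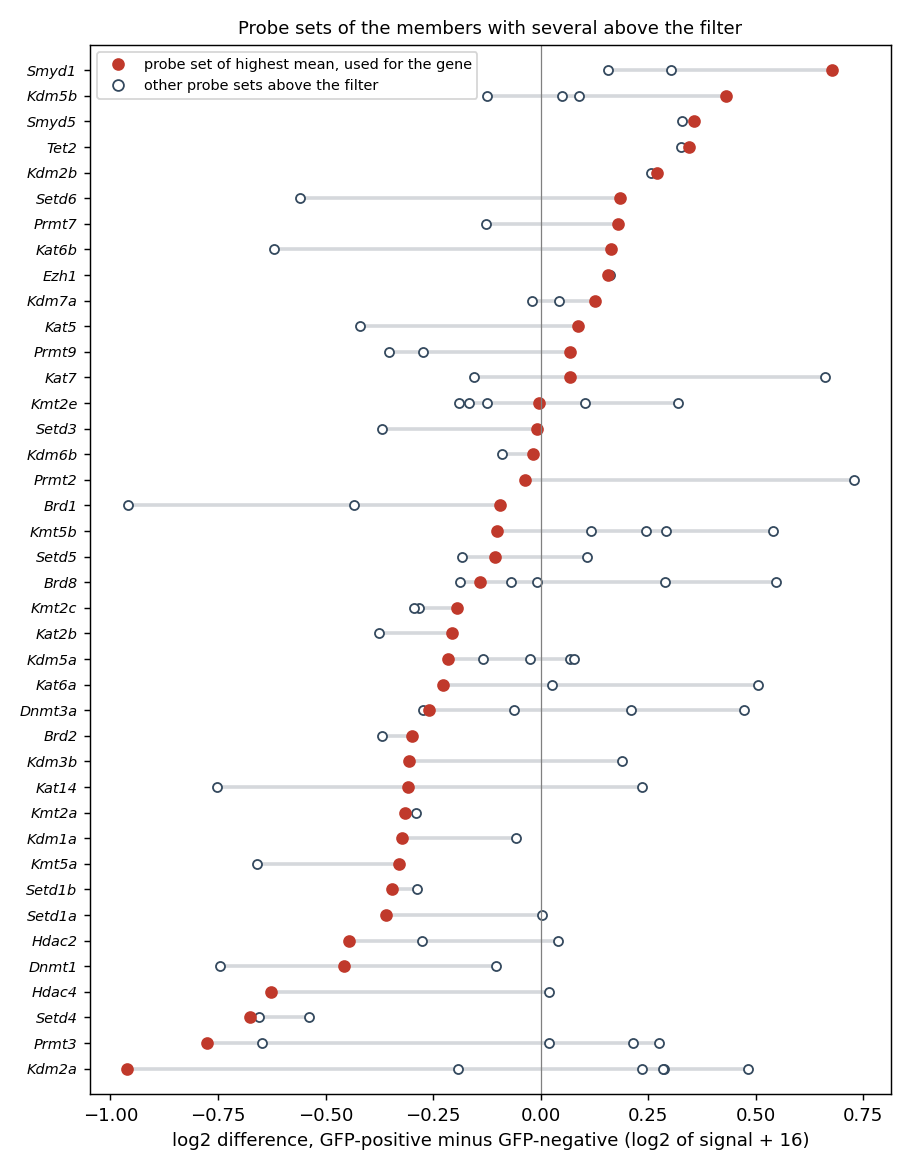
Log2 differences, GFP-positive minus GFP-negative, of every probe set above the filter for the 40 enzymes with several, ordered by the probe set used for the gene (red). Open points are the other probe sets, and a line that crosses 0 marks an enzyme whose probe sets had both signs (23 of 40), such as Kdm2a at -0.96 and 0.48.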

How the data were processed

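Total RNA of sorted cells was hybridised to 1-colour Affymetrix mouse arrays, 2 per group, with groups and replicate numbers taken from the titles. The series design text once writes the GFP-negative cells as lacking CD4, while the title and sample labels give CD4 T cells, and the title and labels were followed. Values were deposited as linear intensities, 1 per probe set. The software behind them is not given in the sources used here, and detection calls were not used. With the top and bottom 2% of probe sets removed, every array had a mean of 150.0. That fits scaling of each array by 1 factor but does not show it.

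The enzymes, classes and gene lists were chosen with earlier results of these data known. Of 45101 probe sets, 34945 non-control ones had 1 symbol in the platform annotation, and all 85 enzymes matched the RefSeq gene table. The probe set with the highest mean of log2(signal + 16) stood for its gene. Genes were tested where that probe set exceeded 27.3, which is the 40th percentile with control probe sets left out. Differences are GFP-positive minus GFP-negative on that log2 scale, which understates the change of dim genes. Levels were not compared between genes. The test was limma 3.58.1 in R 4.3.3 (lmFit and eBayes, two-sided, 2 residual and 3.74 prior degrees of freedom), with Benjamini-Hochberg adjustment over all 12252 tested genes, and it was tested on simulated data. Means ± SD are of signals.

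Named enzymes are those past the adjusted threshold, with an unadjusted p under 0.05, or at least 1.5-fold apart without overlap, plus the 2 of highest mean signal per class. Other enzymes, list genes and motifs named were chosen after their values or sequences were seen. Alternatives were another pseudocount (1 or 64), no or a stricter filter (60th percentile), quantile, cyclic loess or median normalization, the mean of a gene's probe sets, trended and robust moderation, the replicate number as a block, leaving out each array, and an arithmetic mean to rank probe sets. Deviations of same-numbered arrays from their group means correlated at 0.198, and no label says that a number marks a shared animal or day. Protein sequences were not used here.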

Additional observations from a re-analysis of the deposited data

Results flagged for a closer look

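The outlier measure needs 4 samples in a group and was not applied to groups of 2. Some values had opposite signs within the 2 replicate numbers, which also differ in sex, with 1 pair of arrays in each, and these differences between replicate numbers were not tested. On the log2 scale Hdac1 differed by 0.12 within replicate 1 and -0.50 within replicate 2. Kdm6b differed by 0.14 within replicate 1 and -0.17 within replicate 2. Kmt2e differed by 0.090 within replicate 1 and -0.098 within replicate 2. Sirt1 differed by -0.059 within replicate 1 and 0.25 within replicate 2. The median of the TET dioxygenases was -0.54 within replicate 1 and 0.39 within replicate 2, the value of Tet3 in replicate 1 and of Tet2 in replicate 2. The median of the arginine methyltransferases was 0.078 within replicate 1 and -0.20 within replicate 2, while Prmt1, Prmt3 and Prmt5 were negative in both. The median of the lysine acetyltransferases was -0.036 within replicate 1 and 0.080 within replicate 2.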

How the results depend on the processing

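The number of genes called at an adjusted p under 0.05 by limma was 4 of 12252 and moved with nearly every setting. It was 0 with a pseudocount of 1, no filter, quantile, cyclic loess or median normalization, without any 1 array, and with an arithmetic mean of signals to rank probe sets (chosen after seeing the data), 8 with the mean of probe sets, 50 with the stricter filter, 175 with a pseudocount of 64 and 240 with trended and robust moderation. The replicate block gave 0, with 2128 genes at an unadjusted p under 0.05, against 1783 without it and 1211 to 2189 over all settings, and it left the enzyme counts below within 1.5 times. Enzymes higher at an unadjusted p under 0.05 numbered 2, and 1 with a pseudocount of 64 or any of the 3 normalizations, 0 with the stricter filter and 1 to 3 without 1 array. Those lower numbered 6, 18 under median scaling (which moves the median of all genes to -0.20) and 3 to 6 without 1 array. Enzymes at least 1.5-fold higher without overlap numbered 3, 1 with a pseudocount of 64 or any of the 3 normalizations, 0 with the stricter filter and 3 to 9 without 1 array. Those lower numbered 8, 4 with a pseudocount of 64 or the mean of probe sets, 18 under median scaling and 6 to 10 without 1 array. The enzymes' median minus that of all tested genes was -0.17. It was -0.14 (pseudocount 64), -0.19 (no filter), -0.12 (stricter filter), -0.12 (quantile), -0.12 (cyclic loess), -0.19 (median scaling) and -0.14 to -0.10 without 1 array.

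For the 11 enzymes named by size or p, 161 values over 15 settings held 0 changes of sign, and in 28 an unadjusted p under 0.05 was lost. Hdac4, Setd4 and Smyd1 had no such p in the main fit and so could not lose it. The groups did not overlap for any of the 11, so another pseudocount or leaving out an array could not turn a sign. The filter, the moderation and the block do not alter a difference, so the kept signs say little beyond the missing overlap. Among the others, Kdm6b was 0.093 (quantile), 0.059 (cyclic loess) and 0.067 (mean of probe sets), Kmt2e 0.059 (quantile) and 0.075 (cyclic loess), Kdm2b -0.047, Prmt6 -0.079 and Sirt1 -0.21 (median scaling), and Dnmt3a 0.018 and Kat6a 0.10 (mean of probe sets). The cause was not tested. Without 1 array, Kdm6b lay between -0.11 and 0.073, Kmt2e between -0.074 and 0.065, Hdac1 between -0.53 and 0.16, and Sirt1 between -0.066 and 0.26. Class medians minus that of all tested genes kept their sign under every setting for DNA methyltransferases, lysine methyltransferases, acetyltransferases, deacetylases and bromodomain proteins. They turned under at least 1 for the other 4. For the lysine methyltransferases the value was only -0.00076 (quantile) and -0.0052 (cyclic loess), too near 0 to give a direction. For the acetyltransferases it was -0.026 without GFP-positive replicate 1. Of 135 class values, 35 moved by more than the SD of the values within the replicate numbers. No detection calls were used, so no limit can be given for signals near background.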
